A study of Gallus gallus with 6 samples.

Results

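Autophagy and mitophagy genes were examined in breast muscle of broiler chickens fed with or without supplementary vitamin E. The set held 42 genes of the known machinery, from the kinase that starts an autophagosome to the lysosome that receives it. They were chosen by name, with earlier results of these data known. Of these, 38 were found by exact name among the 20943 genes of the expression table, and ATG101, ATG2A, ATG4D and ATG10 were not analysed here. All 38 averaged 1 FPKM or more, the minimum for a test, and the lowest was ATG7 at 1.83 FPKM. FPKM counts fragments per unit of gene length and per unit of library size. Levels can thus be set side by side between genes, but they depend on the length used for each.

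The libraries came from pectoral muscle of female birds at 35 days of age. Control birds received the basal diet with 0 IU/kg of added vitamin E, and the other group received 100 IU/kg in the form of the ester DL-α-tocopheryl acetate, a source of a fat-soluble antioxidant. There were 3 poly(A)-selected libraries in each group. The labels do not state that they came from separate birds, so p-values measure only the spread between these samples.

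In autophagy a cell encloses part of its cytoplasm in a double membrane and delivers it to the lysosome. A ULK kinase complex starts the process, a PI3-kinase complex marks the membrane, and a ubiquitin-like conjugation system attaches proteins of the ATG8 family (LC3 and GABARAP) to it. Cargo receptors and, for mitochondria, receptors of the outer membrane bind these ATG8 proteins. In skeletal muscle autophagy is known for removing damaged mitochondria and for supplying amino acids in fasting.

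The FPKM values rested on totals of 25477341, 17203041 and 16239948 reads in the controls, as recovered from the FPKM steps. With vitamin E the totals were 14161399, 14838400 and 15288812 reads, all below those of the controls. Reads recovered for genes made up at least 99.82% of each total. On the first principal component of all tested genes (38.4% of the variance), control replicates 1 to 3 scored -34.4, 5.87 and -14.2. Vitamin E replicates 1 to 3 scored 16.5, 17.4 and 8.75, all above the controls. Fast skeletal muscle markers summed to 77125 to 89139 FPKM in controls and 70656 to 77777 FPKM with vitamin E, so the groups overlapped. ACTA1 and MYL1 were the leading genes, and 1 of 13 tested genes was lower at an unadjusted p under 0.05. The sum hides single genes in which control replicate 1 was apart. There MYH1A stood at 962 FPKM and MYH1C at 646 FPKM, against at most 168 and 97.2 FPKM in any other library. MYH1D and MYH1F were lowest in that control. Fibroblast markers lay higher with vitamin E, at 2207 to 3089 FPKM summed over 8 genes, against 1515 to 1761 FPKM in controls, with 6 of 8 at an unadjusted p under 0.05. Adipocyte markers (6 genes) summed to 142 to 226 FPKM in controls and 242 to 375 FPKM with vitamin E, with 1 of 5 tested genes at an unadjusted p under 0.05. Most of that sum was FABP4, whose groups overlapped. The 3 haemoglobin genes with a row summed to 34.4 to 72.1 FPKM in controls and 75.7 to 97.6 FPKM with vitamin E. Of these, 2 were tested, and 2 were higher at an unadjusted p under 0.05. Endothelial, leukocyte, smooth muscle and slow fibre marker sums overlapped between the groups. The slow fibre sum was almost wholly TNNC1, at 5693 to 10540 FPKM, and 3 of its 7 genes with a row were tested. The part of these markers in the results below was not tested. In whole tissue, fewer cells of a type and less RNA per cell cannot be told apart.

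Across the set, 3 genes had an unadjusted p under 0.05 with limma, near the share of all tested genes. All were higher with vitamin E: the initiating kinase gene ULK2, the mitophagy receptor gene BNIP3 and the PI3-kinase subunit gene ATG14. Their mean FPKM was 1.63, 1.46 and 1.41 times the control mean. None passed the test over all genes: at a Benjamini-Hochberg adjusted p under 0.05 limma called 0 of 38 members and 0 of 11320 genes (0%), and ULK2 had the set's lowest adjusted value, 0.320. Limma-voom on recovered reads called 2 genes, with 0 of them members, and gave the same 3 members at an unadjusted p under 0.05. Without adjustment, p was under 0.05 for 3 higher members (7.89%) against 5.97% of all tested genes, and 0 lower members against 3.14%. Over all genes that is 676 higher and 355 lower, and with TMM-type scaling it was 535 and 503. The share of higher members was thus near the background.

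The 3 vitamin E libraries exceeded every control in 8 of 38 members (21.1%), where this held for 8.86% of all tested genes. The opposite order was found in 0 members and in 5.72% of tested genes. The 8 were ULK2, RB1CC1, UVRAG, ATG14, PIK3R4, ATG5, BNIP3 and LAMP2. In PIK3R4 the groups all but touched, at 3.299 FPKM in the highest control and 3.301 FPKM in the lowest vitamin E library. The log2 difference, vitamin E minus control on the log2(FPKM + 1) scale, was above 0 in 29 members (76.3%) and in 54.2% of tested genes. The median difference was 0.091 in the set and 0.019 over all tested genes, and with TMM-type scaling it was 0.045 and -0.023. With that scaling 25 of 38 members were above 0, and 8 higher members and 1 lower one (ATG7) had groups without overlap, against 6.94% and 7.96% of tested genes. These shares describe the set, which was chosen with earlier results of these data known, and are not a test of it.

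**Figure D1:**
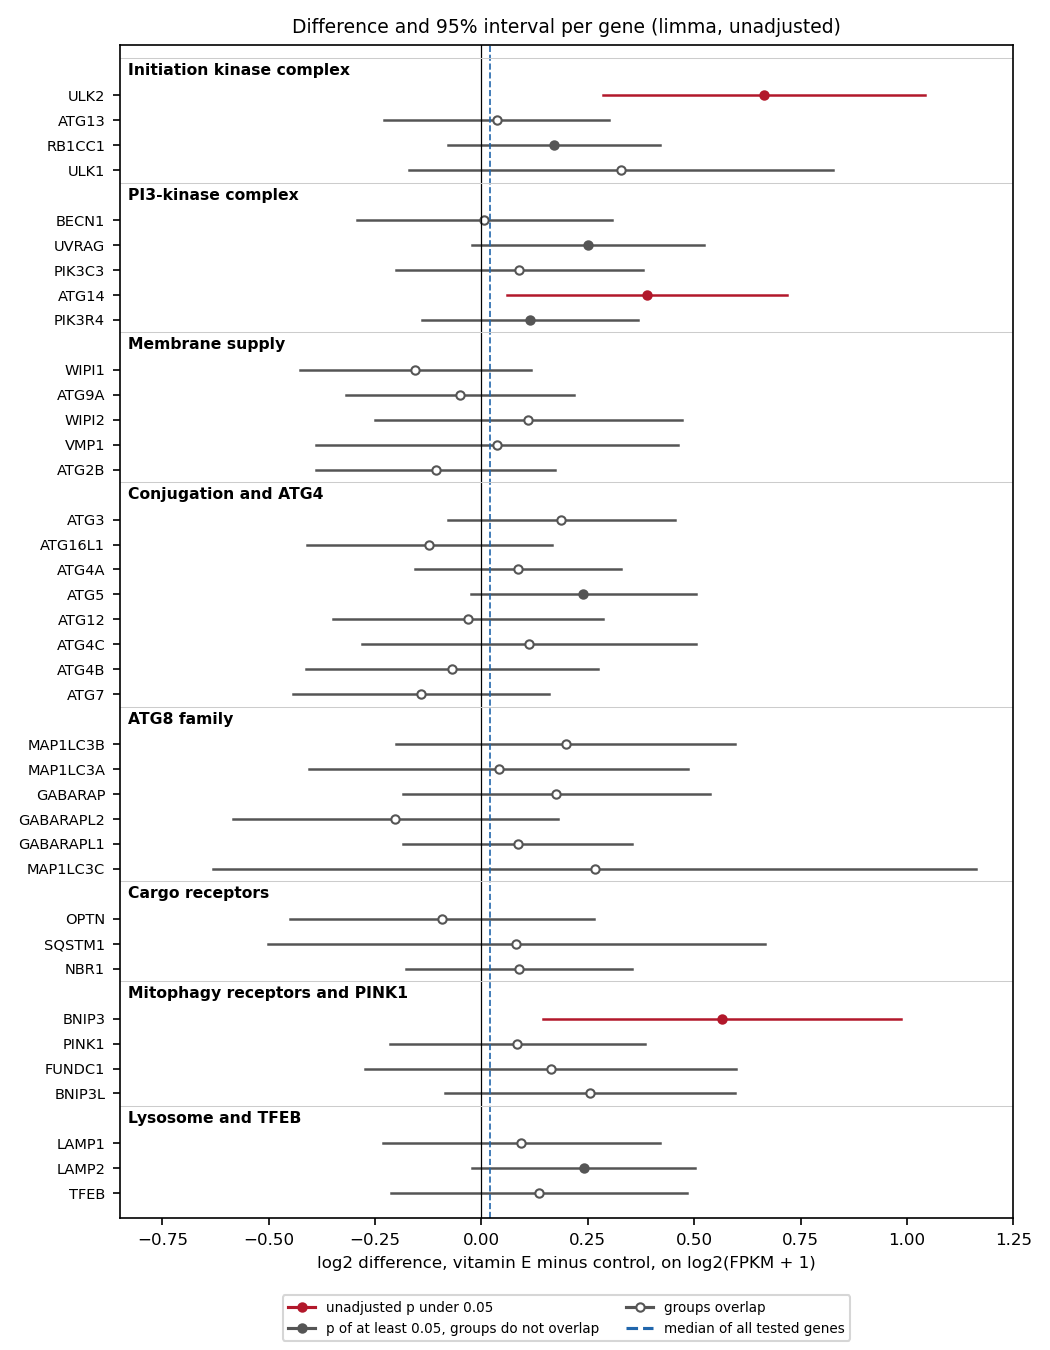
Log2 difference between vitamin E and control libraries for each of 38 genes (points) with its unadjusted 95% interval (lines), grouped by role; filled points mark genes whose groups do not overlap, red marks an unadjusted p under 0.05 and the dashed line the median of all tested genes. The intervals of ULK2, ATG14 and BNIP3 lie above 0, and the other 35 include it.

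Expression of the set was broad and mostly moderate. The median member averaged 17.6 FPKM over the 6 libraries, where the median tested gene averaged 6.70, and 28 of 38 members were at or above the latter. LAMP1, a major glycoprotein of the lysosomal membrane, was highest at a mean of 161 FPKM. It was followed by the ATG8 genes MAP1LC3B (139 FPKM) and MAP1LC3A (123 FPKM), the cargo receptor gene OPTN (114 FPKM) and BNIP3 (77.9 FPKM). At the low end stood PIK3R4 (3.42 FPKM), MAP1LC3C (2.48 FPKM) and ATG7 (1.83 FPKM). The rank of ATG7 rests on its length, recovered as 16613 bases against 4736 for PIK3R4. Over the 6 libraries ATG7 had 3156 reads and PIK3R4 1660. In 34 of 37 pairs of neighbours in this order the ranges over the 6 libraries overlapped. The breaks lay between PINK1 and WIPI1, between ATG13 and ATG4A, and between ATG4A and RB1CC1. The SD over all 6 libraries was under 10% of the mean in 13 of 38 members, and it was largest relative to the mean in MAP1LC3C (51.1%), ULK2 (30.0%) and BNIP3 (24.3%). The fewest reads behind any value were 18, for MAP1LC3C in control replicate 1, and outside that gene the fewest were 153.

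**Figure D2:**
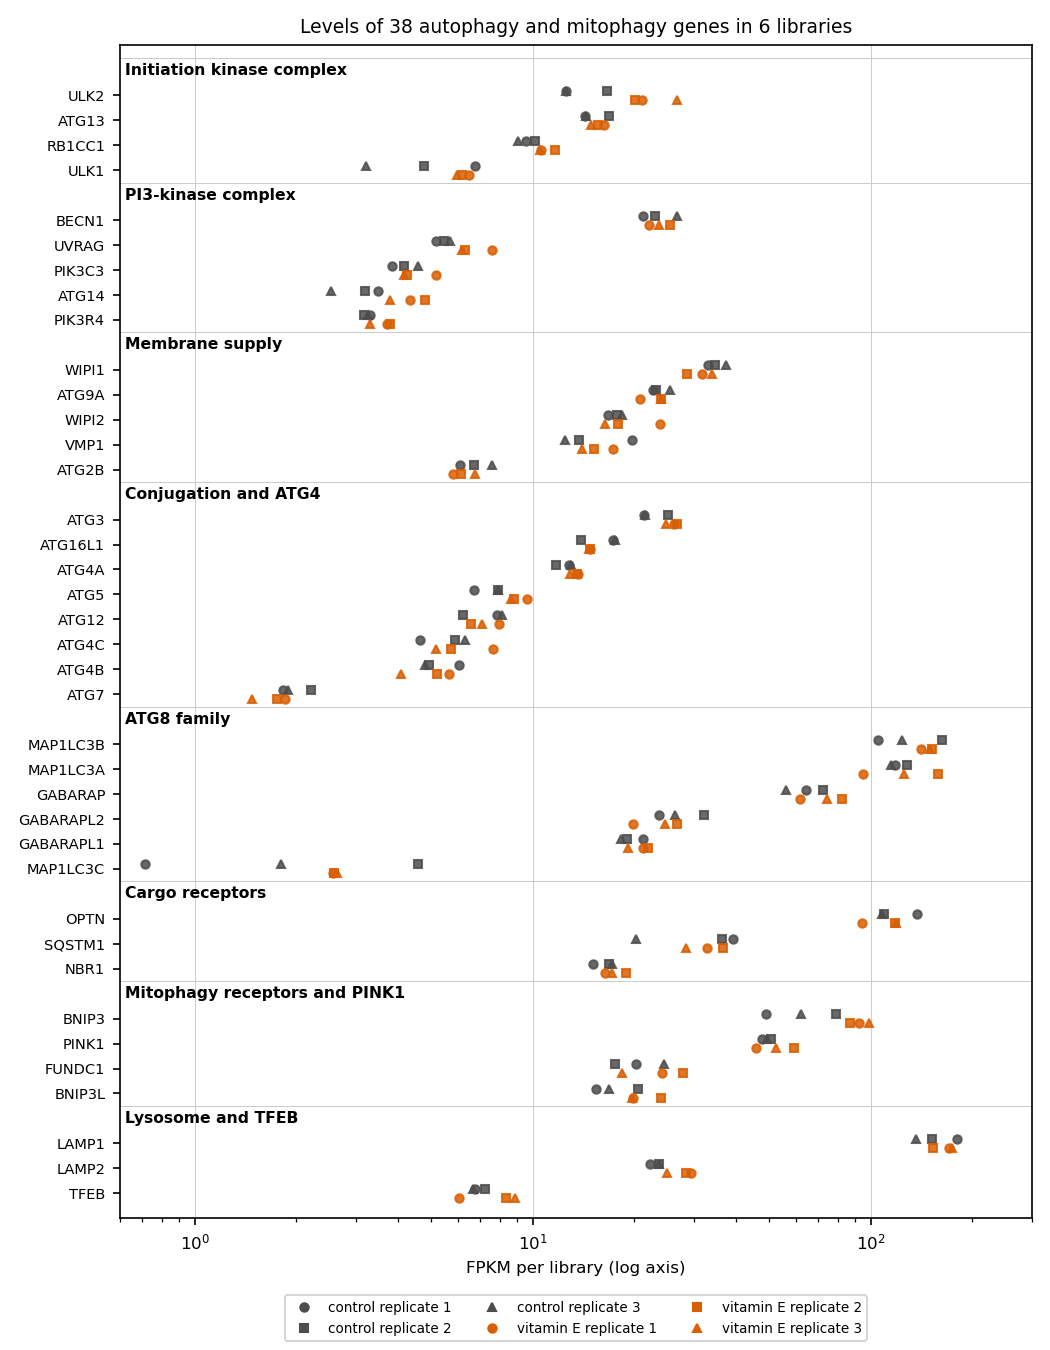
FPKM on a log axis for 38 genes in each of 6 libraries, with controls in grey, vitamin E in orange and the replicate given by the symbol. LAMP1, MAP1LC3B, MAP1LC3A and OPTN lie near or above 100 FPKM, and ULK2 and BNIP3 show separate groups.

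Among genes of the initiation complex, ULK2 differed most in the whole set, and its paralogue ULK1 was not separated by group. ULK2 stood at 12.6, 16.6 and 12.6 FPKM in control replicates 1 to 3 and at 21.1, 20.1 and 26.7 FPKM in vitamin E replicates 1 to 3. Every vitamin E library was above the highest control, and vitamin E replicate 3 was the highest of all. The means were 13.9 ± 2.33 and 22.6 ± 3.57 FPKM (SD, n = 3), a log2 difference of 0.66 ± 0.16 (SE; 95% interval 0.28 to 1.04). Limma gave ULK2 an unadjusted p of 0.00418, rank 148 of 11320 genes, and an adjusted p of 0.320. The gene lies on chromosome 19 from 6806401 to 6842675 on the plus strand in the coordinates of the deposited table, for which no source used here names a build. Between 1135 and 2272 reads stood behind each value, so counting error was small beside the spread between libraries.

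ULK1 stood at 6.75, 4.77 and 3.22 FPKM in the controls and at 6.47, 6.16 and 5.98 FPKM with vitamin E. Control replicate 1 was the highest library of this gene and control replicate 3 the lowest, so the groups overlapped. Its log2 difference was 0.33, with a 95% interval from -0.17 to 0.83, and it was 0.54 (unadjusted p = 0.0137, adjusted p = 0.513 with limma) without control replicate 1. FPKM is scaled by length, which allows the paralogues to be set side by side: ULK2 was 3.08 ± 1.07 times the level of ULK1 in controls and 3.66 ± 0.699 times in the other group (SD, n = 3), and the ratios overlapped. RB1CC1, the large scaffold protein FIP200 of the complex, stood at 9.52, 10.2 and 9.04 FPKM in controls and at 10.6, 11.6 and 10.5 FPKM with vitamin E. These groups did not overlap, but the gap between them was small and the log2 difference of 0.17 did not pass (adjusted p = 0.675, limma). ATG13, the regulatory subunit that links the kinase to RB1CC1, averaged 15.2 ± 1.41 and 15.5 ± 0.694 FPKM (SD, n = 3).

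Of the PI3-kinase complex, which makes the lipid signal on the growing membrane, ATG14, UVRAG and PIK3R4 were higher in every vitamin E library. The PIK3R4 gap was small, and the groups of PIK3C3 and BECN1 overlapped. ATG14, which directs the complex to autophagosome formation, stood at 3.49, 3.18 and 2.53 FPKM in controls and at 4.34, 4.81 and 3.79 FPKM with vitamin E. The groups were apart, with control replicate 3 lowest and vitamin E replicate 2 highest. The log2 difference was 0.39 ± 0.14 (SE; 95% interval 0.061 to 0.72; limma, unadjusted p = 0.0262, adjusted p = 0.479). The unadjusted p of ATG14 was 0.0833 without control replicate 3, 0.0649 without the first vitamin E library and 0.0904 without the second. ATG14 lies on chromosome 5 from 56311784 to 56329818, and its values rested on 153 to 331 reads.

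UVRAG, which takes the place of ATG14 in the form of the complex that acts on endosomes and later steps, stood at 5.19, 5.48 and 5.68 FPKM in controls. With vitamin E it stood at 7.57, 6.32 and 6.19 FPKM, all above the controls. The log2 difference was 0.25 ± 0.12 (SE; 95% interval -0.022 to 0.52), with an adjusted p of 0.571 from limma. PIK3R4, the scaffold subunit, ranged from 3.17 to 3.30 FPKM in controls and from 3.30 to 3.79 FPKM with vitamin E; the groups touched without overlapping. PIK3C3, the lipid kinase itself, averaged 4.18 ± 0.366 and 4.52 ± 0.558 FPKM (SD, n = 3), and its groups overlapped. BECN1, the core subunit beclin 1 and the most abundant of the complex, stood at 21.1, 23.1 and 26.8 FPKM in controls and at 22.0, 25.5 and 23.6 FPKM with vitamin E. Its log2 difference was 0.0065, with a 95% interval from -0.29 to 0.31, and it turned to -0.043 with TMM-type and -0.034 with median-of-ratios scaling. From start to end, introns included, BECN1 overlaps CNTD1 on the opposite strand by 335 bases. The sources used here do not say whether reads were counted by strand.

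**Figure D3:**
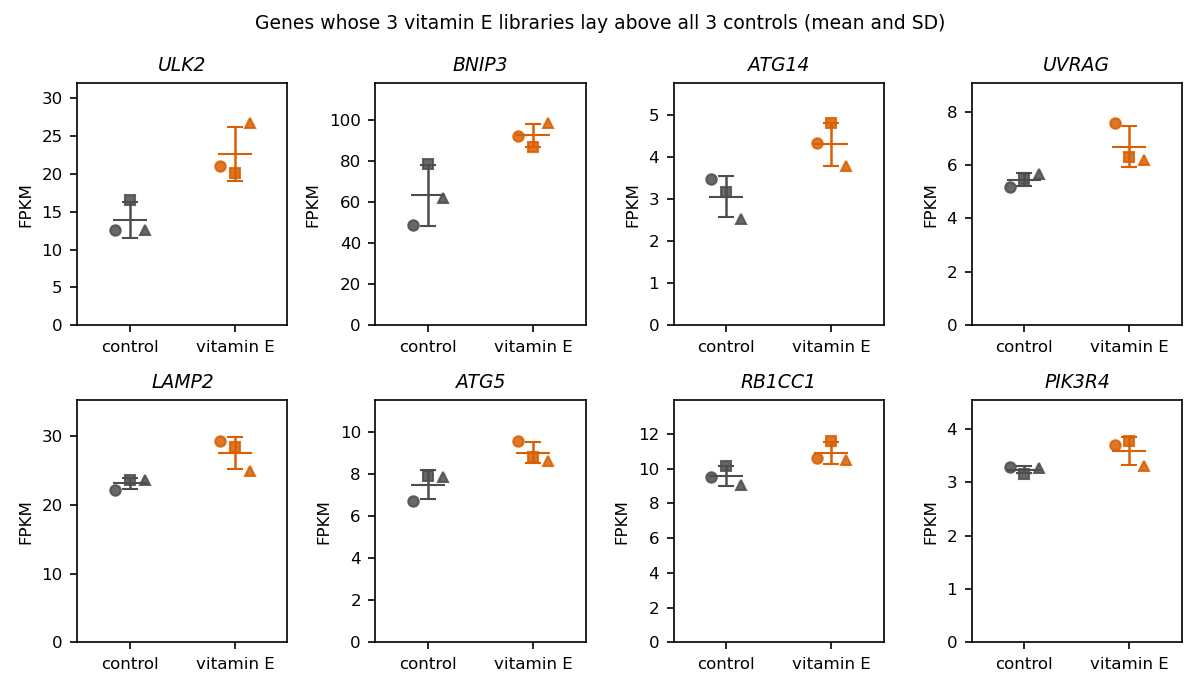
FPKM in each library (points; circle, square and triangle for replicates 1, 2 and 3) with the mean and SD of each group, for the 8 genes whose vitamin E libraries all lay above the controls. Relative to its level the gap between groups is widest for ULK2, at 16.6 FPKM in the highest control and 20.1 FPKM in the lowest vitamin E library, and narrowest for PIK3R4.

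Genes that bring lipid and membrane to the autophagosome did not separate by group. WIPI1, a reader of the PI3-kinase signal and the highest of these genes, stood at 33.0, 34.7 and 37.2 FPKM in controls and at 31.6, 28.5 and 33.8 FPKM with vitamin E. Vitamin E replicate 2 was lowest, and the log2 difference was -0.16 with a 95% interval from -0.43 to 0.12 (limma, adjusted p = 0.724). The related reader WIPI2, the membrane-spanning lipid scramblase gene ATG9A, the endoplasmic reticulum protein gene VMP1 and the lipid transfer gene ATG2B had log2 differences between -0.11 and 0.11. From start to end, introns included, VMP1 shares 2401 bases with RPS6KB1 on the same strand. Whether the counted sequence is shared was not examined. In all, 12 members overlap another annotated gene in this way, and ULK2, BNIP3 and ATG14 are not among them.

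In the conjugation system, which joins ATG12 to ATG5 and ATG8 proteins to lipid, ATG5 was the one gene whose groups did not overlap. ATG5 stood at 6.71, 7.90 and 7.89 FPKM in controls and at 9.59, 8.83 and 8.63 FPKM with vitamin E. The log2 difference was 0.24 ± 0.11 (SE; 95% interval -0.026 to 0.50), with a limma adjusted p of 0.575. ATG3, which carries out the last transfer of ATG8 proteins to lipid, was the highest gene of the system at a control mean of 22.7 ± 2.16 FPKM and a vitamin E mean of 25.9 ± 0.975 FPKM (SD, n = 3). Its libraries stood at 21.3, 25.1 and 21.5 FPKM in controls and at 26.2, 26.6 and 24.8 FPKM with vitamin E. Control replicate 2 was above vitamin E replicate 3, so the groups overlapped. The remaining members were ATG12, its partner scaffold ATG16L1, the ATG4A, ATG4B and ATG4C proteases that process ATG8 proteins, and the activating enzyme gene ATG7. They had log2 differences between -0.14 and 0.11, and all their groups overlapped. ATG7 stood at 1.83, 2.21 and 1.89 FPKM in controls and at 1.85, 1.75 and 1.48 FPKM with vitamin E, a log2 difference of -0.14 with a 95% interval from -0.44 to 0.16. Its span from start to end, introns included, overlaps that of VGLL4 on the opposite strand by 1314 bases.

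The ATG8 family, whose lipid-linked proteins coat the autophagosome, held no member whose groups were apart. MAP1LC3B, the widely used LC3 marker, stood at 105, 163 and 124 FPKM in controls and at 141, 151 and 150.1 FPKM with vitamin E. Control replicate 2 was the highest library and control replicate 1 the lowest, and the log2 difference was 0.20 (95% interval -0.20 to 0.60). MAP1LC3A, its close paralogue, stood at 118, 128 and 114 FPKM in controls and at 94.8, 158 and 125 FPKM with vitamin E. Here the vitamin E libraries held both the lowest and the highest value, and the log2 difference was 0.041, turning to -0.010 with TMM-type and -0.000714 with median-of-ratios scaling. MAP1LC3B was 1.08 ± 0.187 times MAP1LC3A in controls and 1.21 ± 0.267 times with vitamin E (SD, n = 3).

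MAP1LC3C was the least abundant ATG8 gene and the most variable gene of the whole set. It stood at 0.712, 4.57 and 1.80 FPKM in controls and at 2.56, 2.58 and 2.64 FPKM with vitamin E. The 18 reads of control replicate 1 give an exact Poisson 95% interval of 0.422 to 1.13 FPKM, which covers counting error only and does not reach the other controls. The log2 difference was 0.27, with a 95% interval from -0.63 to 1.16, and without control replicate 1 it was -0.14. Among the GABARAP genes, which act mainly in closure of the autophagosome and its fusion with the lysosome, GABARAP stood at 64.3, 72.2 and 56.0 FPKM in controls and at 61.6, 82.4 and 74.3 FPKM with vitamin E. GABARAPL2 stood at 23.7, 32.2 and 26.4 FPKM in controls and at 19.8, 26.8 and 24.6 FPKM with vitamin E. GABARAPL1 stood at 21.1, 19.0 and 18.3 FPKM in controls and at 21.1, 21.9 and 19.1 FPKM with vitamin E. All 3 overlapped between the groups, with log2 differences of 0.18, -0.20 and 0.085 in that order.

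Cargo receptors, which tie ubiquitin-marked material to ATG8 proteins, did not separate either. OPTN, a receptor that acts in mitophagy among other pathways, stood at 137, 109 and 108 FPKM in controls and at 94.2, 118 and 119 FPKM with vitamin E. SQSTM1, which encodes p62, stood at 39.2, 36.2 and 20.2 FPKM in controls and at 32.8, 36.6 and 28.5 FPKM with vitamin E. Control replicate 3 was the lowest SQSTM1 library, and the log2 difference of 0.082 (95% interval -0.50 to 0.67) became -0.21 without it. NBR1, a relative of p62 in function, stood at 15.1, 16.8 and 17.2 FPKM in controls and at 16.3, 18.8 and 17.2 FPKM with vitamin E. The difference of OPTN was -0.092 and that of NBR1 0.088 on the log2 scale.

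In the mitophagy group, BNIP3 was higher in each vitamin E library and the other receptors were not separated. BNIP3, a receptor of the mitochondrial outer membrane that binds LC3 directly, stood at 48.9, 78.7 and 62.2 FPKM in controls and at 92.4, 86.9 and 98.5 FPKM with vitamin E. Controls were spread widely, with replicate 1 lowest, and the vitamin E libraries lay close together above them. The means were 63.3 ± 14.9 and 92.6 ± 5.82 FPKM (SD, n = 3), a log2 difference of 0.57 ± 0.18 (SE; 95% interval 0.15 to 0.99). Limma gave an unadjusted p of 0.0152 and an adjusted p of 0.425. The unadjusted p stayed under 0.05 without each library in turn, with 0.0499 the highest, and the log2 difference then ranged from 0.40 to 0.73. BNIP3 lies on chromosome 6 from 34844501 to 34850171 on the minus strand and rested on 1681 to 2506 reads per library.

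BNIP3L, the paralogue also called NIX, stood at 15.4, 20.6 and 16.8 FPKM in controls and at 19.8, 23.9 and 19.6 FPKM with vitamin E. Control replicate 2 lay above vitamin E replicates 1 and 3, and the log2 difference was 0.25 (95% interval -0.086 to 0.60). BNIP3 was 3.57 ± 0.348 times the level of BNIP3L in controls and 4.44 ± 0.718 times in the other group (SD, n = 3), and the ratios overlapped. PINK1, the kinase that marks depolarized mitochondria, stood at 47.5, 50.8 and 49.4 FPKM in controls and at 45.7, 59.4 and 52.6 FPKM with vitamin E. FUNDC1, a further receptor of the outer membrane, stood at 20.2, 17.5 and 24.4 FPKM in controls and at 24.1, 27.8 and 18.3 FPKM with vitamin E. Neither was separated by group, and their log2 differences were 0.085 and 0.16.

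At the lysosomal end, LAMP2 was higher in all vitamin E libraries, and LAMP1 and TFEB overlapped. LAMP2, a lysosomal membrane protein needed for fusion and for chaperone-mediated autophagy, stood at 22.2, 23.6 and 23.6 FPKM in controls and at 29.4, 28.5 and 24.9 FPKM with vitamin E. The log2 difference was 0.24 ± 0.11 (SE; 95% interval -0.022 to 0.50; limma, adjusted p = 0.571). LAMP1 stood at 179.7, 152 and 136 FPKM in controls and at 171, 152 and 175 FPKM with vitamin E, a log2 difference of 0.093. TFEB, the transcription factor of lysosomal and autophagy genes, stood at 6.76, 7.23 and 6.67 FPKM in controls and at 6.06, 8.33 and 8.84 FPKM with vitamin E. Vitamin E replicate 1 was its lowest library, and the log2 difference was 0.13 (95% interval -0.21 to 0.48).

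The intervals give the size of change these libraries leave possible. For 36 of 38 members the unadjusted 95% interval lay inside a 2-fold change in either direction on the log2(FPKM + 1) scale, ULK2 and MAP1LC3C being the exceptions. For 29 members it lay inside a 1.5-fold change. Adding 1 FPKM shrinks the differences of low genes, so these counts hold on that scale only. With 0.1 FPKM added instead, the log2 difference of ULK1 was 0.39 in place of 0.33. A p that misses the threshold does not show that levels were equal.

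Other genes of the pathway were read from 6 lists, drawn up by role with earlier results of these data known. With limma, 0 of their members passed over all genes. Their counts at an unadjusted p under 0.05 stand against 5.97% higher and 3.14% lower among all tested genes. Of 25 other tested genes of the autophagy machinery, 0 were higher and 1 was lower at an unadjusted p under 0.05. The lower one was SNAP29, which encodes a protein that acts in membrane fusion. It stood at 38.5, 26.6 and 34.5 FPKM in controls and at 21.9, 25.5 and 23.3 FPKM with vitamin E (log2 difference -0.46, limma adjusted p = 0.446). The lower count of this list was 0 when the first control, the first vitamin E or the third vitamin E library was left out. It was 2 with each other scaling, and with the replicate number or the digit in the sample descriptions as a block. The higher count of this list was 1 without the third vitamin E library. In the list of other mitophagy and mitochondrial dynamics genes, 0 of 17 had an unadjusted p under 0.05, and without the first vitamin E library 1 was lower. Of 17 tested subunits and partners of the V-ATPase, the proton pump of the lysosome, 0 were higher and 1 was lower, ATP6V1C2 at a log2 difference of -0.43. That lower count was 0 when the first or the third control, or the second or the third vitamin E library, was left out. The higher count was 1 without the first control or the third vitamin E library.

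Lysosomal hydrolase and membrane genes had the highest median difference of the 6 lists, 0.15, with 28 of 34 above 0 against 54.2% of all tested genes. At an unadjusted p under 0.05, 3 were higher and 1 was lower, near the shares of all genes, but the higher count depended on the setting. It was 6 with library quality weights, 7 with the replicate number as a block and 6 with the description digit as a block. Over all tested genes these settings gave 6.57%, 5.82% and 6.04% higher. LAPTM4A, a membrane protein of late endosomes and lysosomes, stood at 82.1, 85.4 and 76.8 FPKM in controls and at 113, 114 and 122 FPKM with vitamin E (log2 difference 0.51; limma, adjusted p = 0.280). Its groups were far apart relative to their spread. LAPTM4B and the cholesterol exporter gene NPC1 were the other higher genes, with log2 differences of 0.48 and 0.34, and the galactosidase gene GLA the lower one, at -0.30. The lower count was 3 without control replicate 3 and 0 without any other single library. Fibroblast marker sums were also higher with vitamin E, and their part in these values was not tested.

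Of 10 tested transcription factors that act on autophagy genes, FOXO3, which induces autophagy genes in mouse muscle, was the 1 gene at an unadjusted p under 0.05; without control replicate 1 or vitamin E replicate 1 there were 2. FOXO3 stood at 16.6, 13.96 and 11.3 FPKM in controls and at 23.5, 33.9 and 29.0 FPKM with vitamin E (log2 difference 1.00; limma, adjusted p = 0.262). Signalling genes of mTORC1 and AMPK, which restrain and promote the ULK complex, held 2 higher and 2 lower members among 27 tested. Over all tested genes the shares were 5.97% and 3.14%. The lower count was 1 when the third control or the second or the third vitamin E library was left out. It was 3 without the second control, with no filter or with quality weights. The higher count was 3 without the first control, the second control or the third vitamin E library. With all libraries kept, the higher ones were SESN1 and DDIT4, which encode inhibitors of mTORC1. They had log2 differences of 2.13 and 1.37 (limma, adjusted p = 0.249 and 0.302). SESN1 stood at 62.8, 114 and 39.2 FPKM in controls and at 262, 306 and 305 FPKM with vitamin E, with no overlap. DDIT4 stood at 30.0, 63.9 and 31.8 FPKM in controls and at 84.5, 92.4 and 142 FPKM with vitamin E. The lower ones, PRKAB2 and PRKAA2, encode subunits of AMPK and had log2 differences of -0.45 and -0.58 (limma, adjusted p = 0.417 and 0.495). The PRKAB2 groups did not overlap, and those of PRKAA2 did. The median of the signalling list was -0.030.

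**Figure D4:**
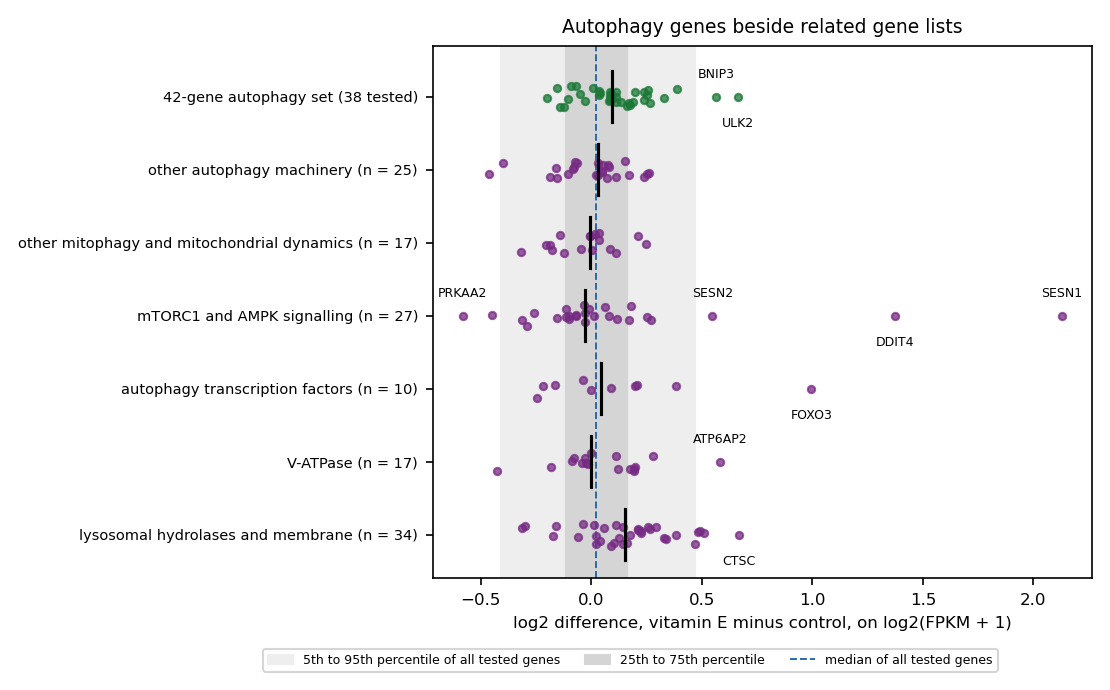
Log2 difference between vitamin E and control libraries for each gene (points) of the autophagy set and of 6 related lists, with each list's median (black bar); the dark and light grey bands show the central part and the wider spread of single tested genes, and the dashed line their median. The set's median is 0.091, and SESN1, DDIT4 and FOXO3 lie far above the other genes shown.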

How the data were processed

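The authors deposited 1 table of FPKM values per gene and library, used here as given. TopHat2 2.0.12 is listed in the submitters' processing notes. No source used here gives the counter, the annotation, the use of strand or the build. Chromosome names came from the symbols that each sequence record shares with a RefSeq gene table (at least 98.96% on 1 chromosome for placed records that hold members; that of GABARAP is unplaced). Whole reads were recovered from the FPKM steps for all 11320 tested genes, within a tolerance of 0.05 read, as the smallest whole numbers that fit. Every pair of libraries of a group differed by more than counting noise (chi-square of at least 21.6 per degree of freedom).

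Groups were compared with limma 3.58.1 in R 4.3.3, with a trend, on log2(FPKM + 1) for the 11320 genes averaging 1 FPKM or more. Tests were two-sided, and p-values were adjusted by Benjamini-Hochberg over every tested gene at a threshold of 0.05. The members and lists were chosen with earlier results of these data known. By rule, values per library were given for members at an unadjusted p under 0.05, those leading each role by p or level, all ATG8, cargo receptor, mitophagy and lysosome genes, and the member nearest 1 FPKM. ULK1, RB1CC1 and UVRAG were added after their values were seen. The recovery of reads and the limma fit were tested on simulated data. Figures were drawn with matplotlib 3.10.9.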

Additional observations from a re-analysis of the deposited data

How the results depend on the processing

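Of 38 members, 0 passed an adjusted p of 0.05 under any of 13 other settings or without any 1 of the 6 libraries. ULK2 and BNIP3 had an unadjusted p under 0.05 in every one of these. The count of higher members at that p ranged from 2 to 6 when single libraries were left out, with 6 without control replicate 2 (BNIP3L, MAP1LC3B and MAP1LC3C joined) and 4 without control replicate 1 (ULK1 joined) and 4 without vitamin E replicate 3 (LAMP2 joined), and no member was lower. Without control replicate 2 the share of higher genes over all tested rose too, from 5.97% to 8.32%. Between libraries with the same number in the title, the correlation of deviations was -0.13, 0.15 and 0.012 for numbers 1, 2 and 3. Between libraries with different numbers it ranged from -0.17 to 0.14. With 3 libraries per group such values cannot exclude pairing. A limma fit with the replicate number as a block left 3 higher members, with a lowest adjusted p of 0.448. That fit gave 7 higher lysosomal list genes in place of 3. ATG14 was not tested with a minimum mean of 5 FPKM, which left 33 members. The median difference of the set was 0.045 with TMM-type scaling and ranged from 0.079 to 0.14 without single libraries. That scaling put 25 of 38 members above 0, and it moved the counts over all genes from 676 higher and 355 lower to 535 and 503.

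The direction held in 25 members and turned in 13 under some setting; the cause was not tested. With TMM-type scaling the log2 difference was -0.013 for ATG13, -0.043 for BECN1, -0.012 for VMP1 and -0.010 for MAP1LC3A, and with median-of-ratios scaling it was -0.00353, -0.034, -0.0023 and -0.000714. Library quality weights gave -0.0105 for BECN1. Without single libraries the log2 difference ranged from -0.0023 to 0.11 for ATG13, -0.068 to 0.096 for BECN1, -0.083 to 0.014 for ATG9A, -0.043 to 0.22 for WIPI2, -0.088 to 0.22 for VMP1, -0.14 to 0.034 for ATG12, -0.030 to 0.21 for ATG4C, -0.15 to 0.044 for ATG4B, -0.14 to 0.23 for MAP1LC3A, -0.14 to 0.71 for MAP1LC3C, -0.15 to 0.018 for OPTN, -0.21 to 0.25 for SQSTM1 and -0.0058 to 0.18 for PINK1. MAP1LC3C had the fewest reads, 18 to 78 per library, and its controls differed by more than counting error. Of the related lists' counts, the lysosomal lower count was 0 with quality weights, either block, no trend, voom or the 5 FPKM minimum, and the V-ATPase higher count was 1 with quality weights or either block; the V-ATPase lower count was 0 with no filter, the 5 FPKM minimum or the description digit block.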
